A study of Mus musculus with 4 samples.

Results

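RNA-seq reads were counted on 998 long terminal repeat (LTR) loci of mouse that belong neither to the ERVK family nor to the IAP and RLTR10 groups. They were chosen from the deposited LTR tables by the repeatmasker fields of each locus, keeping every family other than ERVK and every name that begins with neither IAP nor RLTR10. They are 998 of the 6216 LTR loci, and of the 152132 LTR and LINE loci, with a count in any of the 4 libraries. By family, 868 are ERV1, 124 are ERVL, 2 are ERVL?, 2 are Gypsy and 2 are Gypsy?, and together they carry 63 repeat names. The commonest names were RLTR6_Mm with 228 loci, RLTR1B with 116, RLTR14 with 71 and RLTR4_Mm with 62.

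The study asked whether repeats are transcribed when Lsh is lost. It compared WT with Lsh-/- cells in 2 settings, C57BL/6J adult tail-tip fibroblasts, which were transformed with SV40 in both genotypes, and whole C57BL/6J embryos at E13.5. Each of the 4 groups is 1 library, so no difference between genotypes has a replicate check and none was tested. The genotype of an embryo library is given as in its label, although the methods describe the staged tissue as coming from heterozygous and homozygous Lsh embryos. Neither the number of fibroblast lines nor the number of embryos per library is given in the sources used here. The loci are repeats and no list of marker genes was read from the intervals around them, so the labelled cell types were not checked here, and in whole embryos fewer cells of a type and less RNA per cell cannot be told apart.

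Endogenous retroviruses are remnants of retroviral insertions, in which an internal region lies between a pair of LTRs that were identical at the time of insertion. The 5' LTR holds the promoter of the element, and cells keep most copies silent through DNA methylation and repressive chromatin. Lsh, encoded by Hells, is a chromatin remodeller of the SNF2 family that is needed for normal DNA methylation of repeats. ERV1 elements resemble gammaretroviruses and include murine leukemia virus and VL30 sequences, whereas ERVL elements are mostly older and lie in the genome as short fragments.

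A few stretches are printed because the results turn on them. The first pair shows LTRs of the RLTR1B loci that lie on opposite sides of the fibroblast comparison, the third comes from an RLTR6_Mm locus that was higher in Lsh-/- embryos, and the last is the start of the ERVL locus with the most counts. Each LTR is represented by the last 300 bases of the 5' LTR and each is written 5' to 3' on the strand of the element, with CpG dinucleotides, the sites of DNA methylation, in capitals. Coordinates are on mm9, also called NCBIM37, as everywhere in the text. The stretches lie at chr12:45062435-45062734 on the minus strand, chr8:124356875-124357174 on the plus strand, chr6:18797620-18797919 on the minus strand and chr6:140698654-140698953 on the minus strand.
RLTR1B, higher in Lsh-/- fibroblasts: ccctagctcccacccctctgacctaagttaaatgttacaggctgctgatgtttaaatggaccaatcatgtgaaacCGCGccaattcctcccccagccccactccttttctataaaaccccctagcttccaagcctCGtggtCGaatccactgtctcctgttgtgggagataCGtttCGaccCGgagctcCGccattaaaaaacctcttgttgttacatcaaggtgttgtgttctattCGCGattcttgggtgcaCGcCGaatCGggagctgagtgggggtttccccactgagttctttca
RLTR1B, lower in both Lsh-/- libraries: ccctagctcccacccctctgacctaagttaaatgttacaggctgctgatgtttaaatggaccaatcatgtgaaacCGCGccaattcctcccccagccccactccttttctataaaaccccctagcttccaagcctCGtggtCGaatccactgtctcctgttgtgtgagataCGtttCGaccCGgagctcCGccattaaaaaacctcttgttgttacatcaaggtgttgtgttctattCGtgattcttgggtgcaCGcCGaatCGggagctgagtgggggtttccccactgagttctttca
RLTR6_Mm, higher in Lsh-/- embryos: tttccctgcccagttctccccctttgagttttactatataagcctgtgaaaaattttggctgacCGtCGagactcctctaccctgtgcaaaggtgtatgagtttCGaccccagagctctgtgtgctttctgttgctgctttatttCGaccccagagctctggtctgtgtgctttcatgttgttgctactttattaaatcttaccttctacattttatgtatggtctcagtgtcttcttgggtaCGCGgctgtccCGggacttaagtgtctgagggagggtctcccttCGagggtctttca
LTR16A, within 2-fold in both tissues: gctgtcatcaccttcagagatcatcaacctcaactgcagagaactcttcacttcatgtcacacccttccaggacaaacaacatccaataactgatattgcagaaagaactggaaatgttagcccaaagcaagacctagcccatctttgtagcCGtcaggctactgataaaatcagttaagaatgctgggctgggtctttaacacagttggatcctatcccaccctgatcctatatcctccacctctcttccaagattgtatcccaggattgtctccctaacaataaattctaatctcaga
The RLTR1B stretches were identical at all but 2 of the 300 positions and held 13 and 12 CpG dinucleotides. The RLTR6_Mm stretch held 8 and the LTR16A stretch held 1.

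Counts over Hells set the Lsh-/- libraries apart from those labelled WT. Intervals flanking LINE loci were taken to lie between 10 and 11 kb from the locus, although their exact reach was not settled. Those placed over exons 11 and 12 of the gene held 937 (WT) and 0 (Lsh-/-) counts in fibroblasts, and 427 and 0 in embryos. Another 10 intervals, placed to touch none of exons 11 to 13, held 5784 and 6132 counts in fibroblasts and 2187 and 2014 in embryos. Such counts cannot tell WT from heterozygous embryos. The LTR tables summed to 75307 (WT) and 194084 (Lsh-/-) in fibroblasts and to 122639 and 139073 in embryos. Intervals around LINE loci on chromosome Y held 12 (WT) and 5402 (Lsh-/-) counts in fibroblasts, and 19973 and 20654 in embryos, so the fibroblast libraries also differ in the Y chromosome. Only 3 of the loci described here lie on the assembled Y and 81 lie on X. Their part in the results is given below by leaving both chromosomes out.

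Of the 998 loci, 228 had at least 10 counts in the fibroblast pair, 326 in the embryo pair and 177 in both, and only these were compared. Log2 fold changes are of Lsh-/- over WT counts after scaling, with the default prior count of edgeR added, and limits of 1 and 5 on that scale correspond to 2-fold and 32-fold. In fibroblasts 114 loci, or 50% of the 228, were above 1, where 31.2% of all 16161 LTR and LINE loci were, and 52 (22.8%) were above 5, where 15.5% of all were. Another 35 (15.4%) were below -1, against 16.5% of all. The median was 0.98 over the 228 loci and 0.21 over all loci. In embryos 88 loci (27.0%) were above 1 and 16 (4.91%) above 5, where 23.3% and 4.65% of all 26784 loci were, and 55 (16.9%) were below -1, where 20.1% of all were. The embryo median was 0.13, and that over all loci was 0.05.

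Fibroblasts thus had a larger share of these loci above 1 than all repeats had, whereas in embryos the shares were near those of all repeats at this minimum. With at least 50 counts, 17.0% of 106 embryo loci were above 1, against 9.55% of all loci, and 1.89% were above 5, against 2.52%. RLTR1B, described below, carried much of the fibroblast excess, with 52 of its 62 loci above 1 and 25 above 5. With RLTR1B left out, 29 of 76 loci with a pair of LTRs (38.2%) and 33 of 90 without (36.7%) were above 1. Above 5 were 14 (18.4%) and 13 (14.4%) of them, near the 15.5% of all loci. Of the 52 fibroblast loci above 5, 35 had no WT count, as had 15 of the 16 embryo loci. With such loci placed at the bound that 3 counts allow, 24 and 1 stayed above 5. The split depended on the scaling. With the total of the LTR table as library size, 92 loci were above 1 and 94 below -1 in fibroblasts, and 75 and 71 in embryos. That total includes the counts on IAP elements and it moved the median of all loci by -1.29 in fibroblasts and by -0.23 in embryos. The median of the 228 fibroblast loci lay 0.77 above that of all loci under TMM scaling and 0.75 above it under this one. A change of library size moves every locus by nearly the same amount, so this gap could barely change and is no check on the split. In fibroblasts IAP elements had 96.7% of 1316 loci above 1, and RLTR10 elements 62.7% of 161. ERVK elements other than IAP and RLTR10 had 40.2% of 398 above 1. The fibroblast shares above 5 were 81.1%, 34.8% and 23.6% in that order, and 22.8% of the 228 loci. LINE loci made up 14058 of all loci compared in fibroblasts and had 24.1% above 1 and 8.74% above 5. The embryo shares above 1 were 86.2% of 725 IAP, 45.3% of 181 RLTR10 and 21.5% of 563 other ERVK loci.

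**Figure D1:**
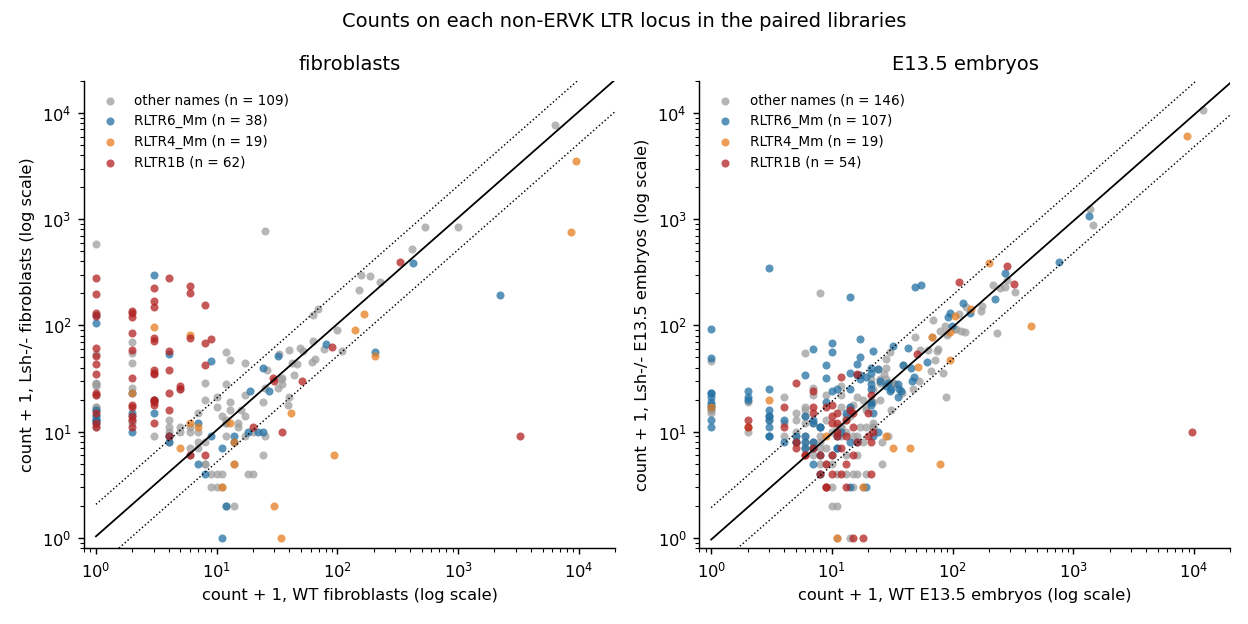
Counts on each locus in the WT library (horizontal axis) and the Lsh-/- library (vertical axis), with 1 added and both axes on a log scale, for the 228 fibroblast loci (left) and the 326 embryo loci (right). The solid line marks equal scaled counts and the dotted lines 2-fold differences, and RLTR1B loci (red) fill the upper left of the fibroblast panel.

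Among names with at least 10 compared loci, RLTR1B had the highest share above 1 in fibroblasts. Of 62 RLTR1B loci compared, 52 (83.9%) were above 1, 25 were above 5 and 2 were below -1. Their median was 3.98, or 3.48 when the 13 loci without a WT count were placed at the bound that 3 counts allow. The WT library held between 0 and 3245 counts on a locus with a median of 2, and the Lsh-/- library between 5 and 393 with a median of 34.5. The Lsh-/- count was the higher at 54 loci and the WT count at 6. The minimum of 10 counts over the pair bears on these shares, since 57 loci reached 10 counts in the Lsh-/- library and 8 in the WT library, and none of those 8 was above 1. Over all 99 RLTR1B loci with a fibroblast count, the Lsh-/- count was the higher at 82 and the WT count at 14. A choice that used no fibroblast count, the 54 loci with at least 10 counts in the embryo pair, had a higher Lsh-/- count at 42 and a higher WT count at 7, with 39 (72.2%) above 1, and was made after the data were seen. Under every scaling tried, between 50 and 52 of the 62 loci were above 1 and the median lay between 2.70 and 4.64.

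Loci above 5 were named by their counts, so a low WT count was part of the choice and their values are a description. At chr6:132912016-132920415, 1259 bp from the taste receptor gene Tas2r129, the counts were 0 (WT) and 279 (Lsh-/-) in fibroblasts and 9 and 13 in embryos, at least 90.1-fold higher in Lsh-/- fibroblasts against a floor of 3 counts per library. At chr12:45054450-45062864, whose LTR is the first of the printed stretches, they were 0 and 198 in fibroblasts, at least 63.9-fold higher, and 12 and 8 in embryos. At chr2:138342740-138351195, in an intron of Btbd3 and on its strand, they were 3 and 278 in fibroblasts, a log2 value of 6.43 with a 95% counting interval of 4.93 to 8.77, and 8 and 4 in embryos. Such intervals and floors cover counting error only. At all 3 loci the Lsh-/- fibroblast library stood far above the other libraries, and the embryo libraries held similar small counts.

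Further RLTR1B loci behaved alike in fibroblasts. The counts in WT and Lsh-/- fibroblasts were 5 and 234 at chr14:56597570-56605977, near the mast cell protease gene Cma2, with 19 and 14 in embryos. They were 2 and 224 in an intron of Abca13 at chr11:9342596-9351012, with 13 and 15 in embryos, and 5 and 200 in an intron of Immp2l at chr12:41991994-42000401, with 6 and 16 in embryos. They were 2 and 169 at chr3:16692530-16700943, with 4 and 3 in embryos, and 2 and 149 at chr4:74712962-74721380, with 5 and 1 in embryos. In each of these loci the Lsh-/- fibroblast count was the highest of the 4 libraries and no other library reached 20. Abca13 and Immp2l are read on the opposite strand to the element.

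RLTR1B loci that kept both LTRs and those that did not were unlike in fibroblasts. Paired LTRs of at least 200 bases were found in 54 of the 62, and 50 of these (92.6%) were above 1 with a median of 4.26, or 3.81 with loci lacking a WT count at their bound. Without paired LTRs, 2 of 8 were above 1 and the median was 0.03. At the fragment at chr9:62256122-62258222 the counts were 331 and 393 in fibroblasts and 282 and 363 in embryos, and at that in an intron of 2610301B20Rik at chr4:10812727-10817437 they were 90, 61, 322 and 242. Both were well covered in every library and both lay within 2-fold in both tissues. These 2 fragments were picked after their values were seen. The minimum of 10 counts over the pair bears on this contrast too. Of the RLTR1B loci, 57 reached 10 counts in the Lsh-/- library and 8 in the WT library, these 2 fragments among the 8. Loci with few WT counts were thus compared only where the Lsh-/- count was higher, and the contrast was not tested under another choice of loci.

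In embryos the RLTR1B loci were not higher as a group. Of 54 compared, 12 (22.2%) were above 1, none was above 5 and 16 were below -1, with a median of 0.05 that became -0.18 when the total of the LTR table set the library size. WT embryos held a median of 10 counts per locus and Lsh-/- embryos 9. Of the 46 loci compared in both tissues, 36 were above 1 in fibroblasts and 11 in embryos, 9 of them in both, and 9 others were above 1 in fibroblasts and below -1 in embryos. WT embryos thus held more counts on a typical RLTR1B locus than WT fibroblasts did, although the lists of compared loci differ and the 2 tissues were scaled separately. The embryo locus above 1 with the most counts was at chr14:63787136-63790060, in an intron of Fdft1 and on the opposite strand to this squalene synthase gene, with 111 (WT) and 253 (Lsh-/-) counts in embryos and 29 and 29 in fibroblasts. Its lower-side flank held 83 and 165 in embryos, so the flank was higher together with the element.

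One RLTR1B locus with many counts ran the other way. At chr8:124356745-124365164, in an intron of the predicted gene Gm20388 and on its strand, the counts were 3245 (WT) and 8 (Lsh-/-) in fibroblasts and 9534 and 9 in embryos. The log2 fold changes were -8.69 (counting interval -9.92 to -7.73) and -9.98 (-11.1 to -9.07). Its 5' and 3' LTRs are identical, at 430 bases and 100% identity, and its printed stretch is nearly the same as that of the higher locus on chromosome 12. This locus decided the sums of RLTR1B. All RLTR1B loci together summed to 3967 (WT) and 4475 (Lsh-/-) in fibroblasts, a ratio of 1.09 (1.05 to 1.14), and without it they held 722 and 4467, a ratio of 5.99 (5.54 to 6.49). In embryos the sums were 10895 and 1528 with it, a ratio of 0.146 (0.138 to 0.154), and 1361 and 1519 without it, a ratio of 1.16 (1.08 to 1.25). Why reads on it were missing from both Lsh-/- libraries was not tested.

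**Figure D2:**
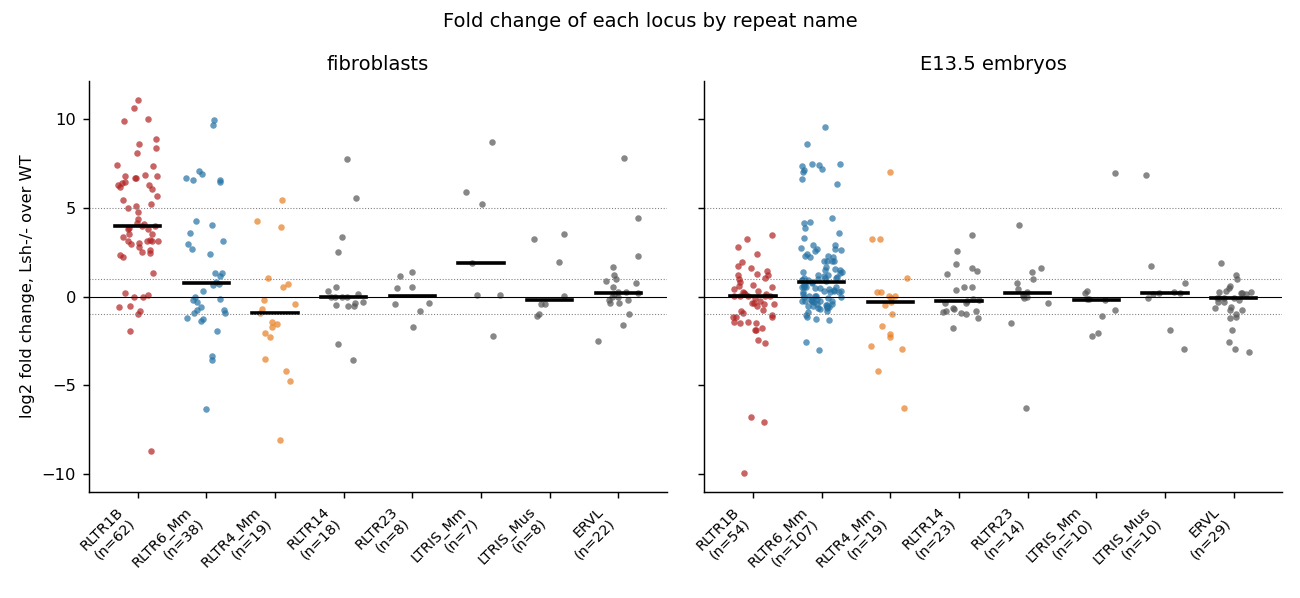
Log2 fold change of every compared locus by repeat name, and by family for ERVL, in fibroblasts (left) and E13.5 embryos (right). Points are loci, black bars are medians and dotted lines mark -1, 1 and 5. The RLTR1B median is 3.98 in fibroblasts and 0.05 in embryos, and the RLTR6_Mm medians are 0.76 and 0.84.

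The bases that follow the 5' LTR hold the primer binding site, where a retrovirus pairs with a host tRNA to start reverse transcription. They were read in the loci whose 5' LTR begins with TG and ends with CA, with the 16 bases after the first 2 in capitals. The commonest forms of RLTR1B and RLTR6_Mm are shown.
RLTR1B, 31 of 59 loci: ttTGGAGGTCCCACCGAG
RLTR1B, 9 of 59 loci: ttTGGAGGTTCCACCGAG
RLTR1B, 6 of 59 loci: ttTGGAGGCCCCAGCGAG
RLTR6_Mm, 48 of 105 loci: ttTGGTGCATTGGCCGGG
RLTR6_Mm, 15 of 105 loci: ttTTGGTGCATTGGCCGG
RLTR6_Mm, 12 of 105 loci: ttTGGGGGCTCGTCCGGG
In fibroblasts 26 of the 27 compared loci of the first RLTR1B form were above 1, as were 6 of 6 of the second and 4 of 4 of the third, with medians of 4.12, 4.10 and 4.12. The forms of RLTR1B therefore had medians that differed by little, although the numbers are small. In embryos 12 of 33 loci of the first RLTR6_Mm form and 5 of 8 of the second were above 1, with medians of 0.57 and 2.25. The second form reads as the first after a further T, so these medians do not set different binding sites against each other. Of the third form 1 locus was compared in embryos, at -1.14.

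RLTR6_Mm is the LTR of VL30, a retroelement family that carries no working viral genes and is packaged by murine leukemia viruses. It was the name with the most loci above 1 in embryos. Of 107 loci compared there, 48 (44.9%) were above 1, 11 above 5 and 6 below -1, and the median was 0.84. WT embryos held a median of 12 counts per locus and Lsh-/- embryos 23, and the Lsh-/- count was the higher at 73 loci and the WT count at 31. The median stayed between 0.61 and 0.84 under the 4 scalings. In fibroblasts 18 of 38 loci (47.4%) were above 1, 8 above 5 and 7 below -1, with a median of 0.76 that became -0.54 when the total of the LTR table set the library size. Of the 37 loci compared in both tissues, 18 were above 1 in fibroblasts and 14 in embryos, 9 of them in both.

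Of the 11 RLTR6_Mm loci above 5 in embryos, 10 had no WT count. At chr6:129754367-129762557, in an intron of the pseudogene Gm16242, the counts were 0 (WT) and 48 (Lsh-/-) in embryos, at least 16.6-fold higher, and 0 and 0 in fibroblasts. At chr6:9246349-9255049 and at chr11:10336358-10344624 they were 0 and 22 in embryos, at least 7.61-fold higher, with 0 and 5, and 0 and 0, in fibroblasts. A locus on chromosome 18 had 0 and 20 in embryos, at least 6.92-fold higher, and 0 and 104 in fibroblasts, at least 33.6-fold higher, with 0 and 48 on its higher-side flank in fibroblasts. The chromosome 18 locus was the one of these 4 with its highest count in fibroblasts, and the others had theirs in Lsh-/- embryos.

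Smaller counts were found at the other RLTR6_Mm loci of this kind. In embryos they were 0 and 18 at chr4:143269022-143277766, over an exon of Gm13086, 0 and 17 at chr12:89330150-89338273, in an intron of Gm6804, and 0 and 16 at chr7:11787637-11796375. In fibroblasts the same loci held 0 and 1, 0 and 2, and 0 and 0 counts. With loci lacking a WT count at their bound, 1 RLTR6_Mm locus stayed above 5 in embryos, so the limit of 5 says little about loci with counts as low as these. The element whose LTR is printed above, at chr6:18792848-18798136, overlapped an exon of Gm16854 and held 48 and 228 counts in embryos and 80 and 66 in fibroblasts.

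One RLTR6_Mm locus was well covered and far lower in Lsh-/- fibroblasts. At chr11:86625241-86629897, close to Dhx40, the counts were 2231 (WT) and 191 (Lsh-/-) in fibroblasts, a log2 value of -3.59 (-3.81 to -3.38), and 1353 and 1074 in embryos, a log2 fold change of -0.28 (-0.40 to -0.16). This locus made up most of the RLTR6_Mm counts in WT fibroblasts, where all RLTR6_Mm loci together held 3334 counts against 1942 in Lsh-/- fibroblasts. In embryos the sums were 4624 and 6061, a ratio of 1.36 (1.31 to 1.41). Without this locus they were 1103 and 1751 in fibroblasts, a ratio of 1.54 (1.42 to 1.66), and 3271 and 4987 in embryos, a ratio of 1.58 (1.51 to 1.65). The lower fibroblast sum in Lsh-/- cells thus rested on 1 locus.

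**Figure D3:**
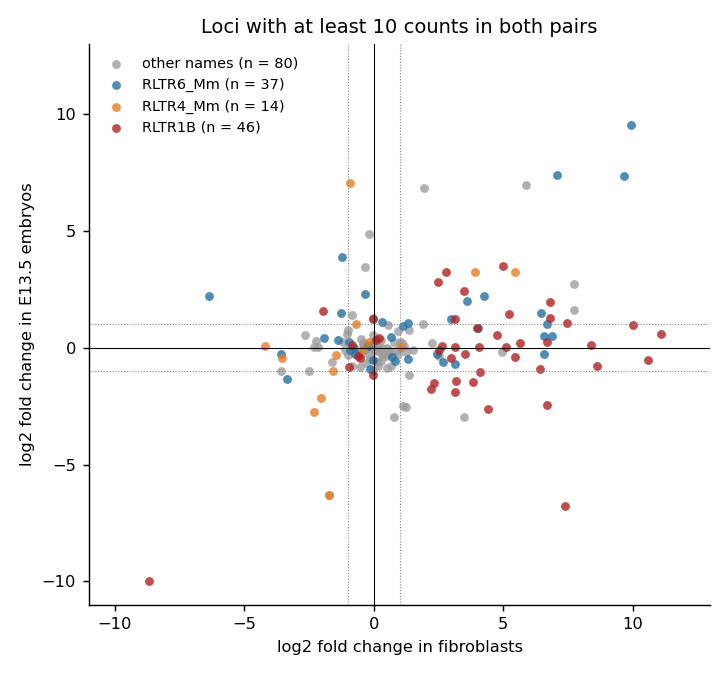
Log2 fold change in fibroblasts (horizontal axis) and in E13.5 embryos (vertical axis) for the 177 loci with at least 10 counts in both pairs, coloured by repeat name, with dotted lines at -1 and 1. RLTR1B loci spread along the horizontal axis, with 36 of 46 above 1 in fibroblasts and 11 in embryos, and the point at the lower left is the RLTR1B locus on chromosome 8.

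RLTR4_Mm is the LTR of murine leukemia virus-type proviruses, and per length its level in WT fibroblasts was below only that of LTR16A among the 63 names. Its 62 loci had 2.01 CPM per kb of locus in WT and 0.504 in Lsh-/- fibroblasts, over the summed length of all of them, where RLTR1B had 0.291 and 0.318 and RLTR6_Mm 0.108 and 0.0610. LTR16A had 8.27 and 9.78, nearly all of it from 1 locus described below. Of 19 loci compared in each tissue, 4 were above 1 and 9 below -1 in fibroblasts with a median of -0.93, and 4 and 7 in embryos with a median of -0.30. Both medians stayed below 0 under the 4 scalings. RLTR4_Mm had the lowest fibroblast median of the 4 names with at least 10 compared loci there, the other of which was RLTR14.

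A pair of RLTR4_Mm loci carried most of those counts. At chr11:5905655-5911518, in an intron of Camk2b and on the opposite strand to this kinase gene, the counts were 9422 (WT) and 3535 (Lsh-/-) in fibroblasts, a log2 value of -1.46 (-1.52 to -1.40), and 51 and 40 in embryos. At chr5:23206672-23214831, between genes and nearest to Srpk2, they were 8533 and 761 in fibroblasts, -3.53 (-3.64 to -3.43), and 8690 and 6129 in embryos, -0.45 (-0.50 to -0.40). The first thus had few counts in embryos of either genotype. The second had its lowest count in Lsh-/- fibroblasts, where the median of the compared RLTR4_Mm loci was 11.

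Another RLTR4_Mm locus was lower in both tissues. At chr4:133715554-133720341, over an exon of Ccdc21 on the opposite strand, the counts were 204 and 51 in fibroblasts, -2.04 (-2.52 to -1.60), and 446 and 98 in embryos, -2.13 (-2.46 to -1.81). The RLTR4_Mm locus above 1 with the most counts in fibroblasts, at chr1:172871882-172880011, had 5 and 80 counts there, 3.92 (2.67 to 5.62), and 1 and 10 in embryos. The only RLTR4_Mm locus above 5 in fibroblasts lay on unplaced Y sequence, with 2 and 96 counts, beside the 12 and 5402 counts that Y intervals held in those libraries, and it was named after its value was seen.

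The remaining names had a lower share above 1 than RLTR1B and RLTR6_Mm. Together they gave 109 loci in fibroblasts, of which 40 (36.7%) were above 1 and 17 below -1 with a median of 0.33. They gave 146 in embryos, of which 24 (16.4%) were above 1 and 26 below -1 with a median of -0.08. The shares of all LTR and LINE loci above 1 were 31.2% in fibroblasts and 23.3% in embryos. RLTR14 had 4 of 18 above 1 in fibroblasts with a median of -0.05, which was -1.35 with the total of the LTR table and 0.62 with that of all 6 tables, and 6 of 23 in embryos with a median of -0.26. RLTR23 had 3 of 14 above 1 in embryos with a median of 0.21, LTRIS_Mus 2 of 10 with 0.21 and LTRIS_Mm 1 of 10 with -0.18. Only names with at least 10 compared loci are given.

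Single loci of these names stood out. RLTR5_Mm at chr7:34811571-34820170, near Abpa, had 0 and 45 counts in embryos, at least 15.6-fold higher in Lsh-/-, and 0 and 8 in fibroblasts. LTRIS_Mm at chr12:89448495-89453916 had 0 and 15 in embryos, at least 5.19-fold higher, and 1 and 69 in fibroblasts, with a log2 fold change of 5.90. RLTR14 at chr8:74642143-74646284 had 5 and 54 in embryos, 3.45 (2.18 to 5.17), and 31 and 25 in fibroblasts. RLTR5_Mm and LTRIS_Mm had their higher counts in the Lsh-/- library of both tissues, and the RLTR14 locus only in embryos.

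Further loci of these names differed between the tissues. RLTR14 on chromosome X, at chrX:53453354-53454345 in an intron of Gm773, had 1 and 54 counts in fibroblasts and none in embryos. It lies on the strand of Gm773, and its flanks held 0 and 173 counts on the lower side and 0 and 31 on the higher side in fibroblasts. RLTR23 at chr6:149196686-149201116 had 1 and 18 in embryos and 0 and 3 in fibroblasts, and LTRIS_Mus at chr3:27152260-27159177, in an intron of Nceh1, had 5 and 16 in embryos and 0 and 0 in fibroblasts. RLTR41 at chr15:38367666-38373428, picked after its values were seen, had 24 and 776 in fibroblasts and 32 and 27 in embryos. In fibroblasts 5 of 6 RLTR41 loci were above 1, but in embryos the Lsh-/- count was the higher at 2 of 4.

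A block of RLTR1 loci shared one pattern. Between positions 3271740 and 8235558 of chromosome 14, 6 of the 8 RLTR1 loci compared in fibroblasts had 0 counts in WT and between 12 and 21 in Lsh-/- fibroblasts, all in introns of predicted genes. Where copies are near-identical, reads can be lost or placed on another copy, so counts on these single loci are uncertain. The RLTR1 locus with the most counts, at chr4:11103036-11111602 close to Trp53inp1, had 413 and 528 in fibroblasts and 280 and 268 in embryos. It lay within 2-fold in both under TMM scaling, but at -1.01 in fibroblasts with the total of the LTR table. This chromosome 14 block was noticed after its values were seen.

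The most strongly covered loci of other names lay within the limits. LTR16A at chr6:140691150-140698953, whose first bases are printed above, is an ERVL locus listed with 7804 bp. It lies in an intron of Gm11077 and on the opposite strand, and how much of its span is LTR16A sequence was not examined. The locus held 6334 and 7773 counts in fibroblasts and 11786 and 10608 in embryos, with log2 fold changes of 0.25 and -0.10. RLTR14 over an exon of Gm7027 at chr7:108715753-108723186 held 1004, 846, 1444 and 880 in the same order, and LTRIS4 over an exon of Stk19 at chr17:34962240-34968290 held 532, 835, 1368 and 1239. All 3 lay within 2-fold in both tissues under TMM scaling. With the total of the LTR table, LTR16A was at -1.07 and RLTR14 at -1.61 in fibroblasts. LTRIS4 was at 1.28 there with the total of all 6 tables. As a family ERVL had 6 of 22 loci (27.3%) above 1 in fibroblasts and 2 of 29 (6.90%) in embryos. Both shares lay below the 31.2% and 23.3% of all LTR and LINE loci. The ERVL medians were 0.21 and -0.11, and the fibroblast value became -1.10 with the total of the LTR table as library size. The ERVL?, Gypsy and Gypsy? loci had too few counts to be compared.

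Other loci were below -1 in embryos. LTRIS2 over an exon of Gm17167 at chr4:42097088-42102702 had 233 in WT and 83 in Lsh-/- embryos, -1.43 (-1.81 to -1.07), and no counts in fibroblasts. RLTR1D in an intron of Gm6950 at chr12:22731112-22735863 had 82 and 35 in embryos, -1.17 (-1.79 to -0.59), and 16 and 43 in fibroblasts, 1.37. The RLTR1D locus therefore lay on opposite sides of 0 in the 2 tissues, and the difference between tissues was not tested.

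Loci close to an IAP element were counted separately. Within 10 kb of a listed IAP locus lay 44 of the 998 loci. In fibroblasts 11 of 15 compared (73.3%) were above 1 and 8 above 5, and of the 213 others 103 (48.4%) and 44 were. The medians were 6.32 and 0.82, and the former became 1.95 with loci lacking a WT count at their bound. In embryos 6 of 11 near an IAP locus and 82 of 315 others were above 1, with medians of 1.24 and 0.12.

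The loci near IAP elements with the most counts include some that overlap the IAP itself. LTR48 at chr8:30625827-30631379 overlaps a listed IAPLTR1_Mm locus and held 0 and 580 counts in fibroblasts, at least 187-fold higher, and 0 and 5 in embryos. RLTR6_Mm at chr4:143565436-143570378 held 2 and 295 in fibroblasts and 2 and 347 in embryos, with log2 fold changes of 7.07 and 7.40, and the RLTR6_Mm locus that overlaps it at chr4:143569748-143572146 held 0 and 125 and 0 and 92. The higher-side flank of the LTR48 locus held 0 and 1265 counts in fibroblasts. An IAPLTR2a locus lay 3483 and 1715 bases from these. The LTR48 locus was high in Lsh-/- fibroblasts only, whereas the chromosome 4 pair was high in both Lsh-/- libraries. These loci are annotated within or beside another repeat, and whether the reads begin in the IAP was not tested.

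The intervals that flank the elements were examined as the study did for read-through. By the paper, the intervals lie 10 kb from a locus and are as wide as the element. Around LINE loci they covered every one of 144 lower-side and 151 higher-side repeats that lay between 10 and 11 kb away, including 133 and 141 beside elements under 1 kb, so they reached to at least 11 kb there, and how far beyond it they reach was not settled. The tables named upstream hold the side of lower coordinates whatever the strand. For RLTR1B, the 52 elements past 1 in the fibroblast comparison summed to 107 (WT) and 3808 (Lsh-/-), a ratio of 34.5, and their lower-side intervals 90 and 53. The higher-side intervals held 6455 and 4734, of which a single interval held 6219 and 4374. No count was found on the lower side of 41 and on the higher side of 37. Few intervals had 10 counts, and of those 0 of 3 on the lower side and 3 of 6 on the higher side were above 1. Over all 114 loci above 1 in fibroblasts, 4 of 12 lower-side and 10 of 18 higher-side intervals were above 1, with a higher-side median of 1.79. Those 10 of 18 are a larger share than the 25.0% of all LTR intervals on that side, and so for these loci the element and a flank were often higher together where the flank had counts. For embryo loci above 1 it was 4 of 16 and 1 of 11. For RLTR6_Mm, the 48 elements past 1 in the embryo comparison summed to 392 and 2271, the lower-side intervals 530 and 564 and the higher-side intervals 408 and 266.

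The share of compared intervals above 1 was set beside that of all LTR intervals. In fibroblasts 25 of 162 lower-side intervals (15.4%) and 34 of 149 higher-side intervals (22.8%) were above 1, where 24.4% and 25.0% of all LTR intervals were. In embryos 23 of 217 (10.6%) and 30 of 197 (15.2%) were, against 14.1% and 14.0%, so only the embryo higher side exceeded its background, by little. Reads between an element and its intervals were not counted. Where the intervals begin was not settled. Around LINE loci they held at least as many counts as the repeat for 114 of 136 lower-side and 129 of 159 higher-side repeats that lay 9 to 10 kb away.

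The share of loci above 1 in fibroblasts varied with the CpG density of the element. Under 1 CpG per 100 bp, 10 of 50 loci (20%) were above 1. From 1 to 2 it was 27 of 52 (51.9%), from 2 to 3 it was 52 of 81 (64.2%) and over 3 it was 24 of 44 (54.5%). RLTR1B carried the upper end of this order. Among RLTR1B loci 28 of 31 (90.3%) with 2 to 3 and 20 of 21 (95.2%) with over 3 were above 1, and among all other names 24 of 50 (48.0%) and 4 of 23 (17.4%) were. In embryos the share was 62 of 140 (44.3%) from 2 to 3 and at most 16.7% in the other bins. RLTR1B gave 10 of 26 in the embryo bin from 2 to 3. RLTR6_Mm, with 48 of 107 embryo loci above 1, had a median of 2.27 CpG per 100 bp. Density and repeat name were thus not separated there. Bins were set once and no trend was tested.

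**Figure D4:**
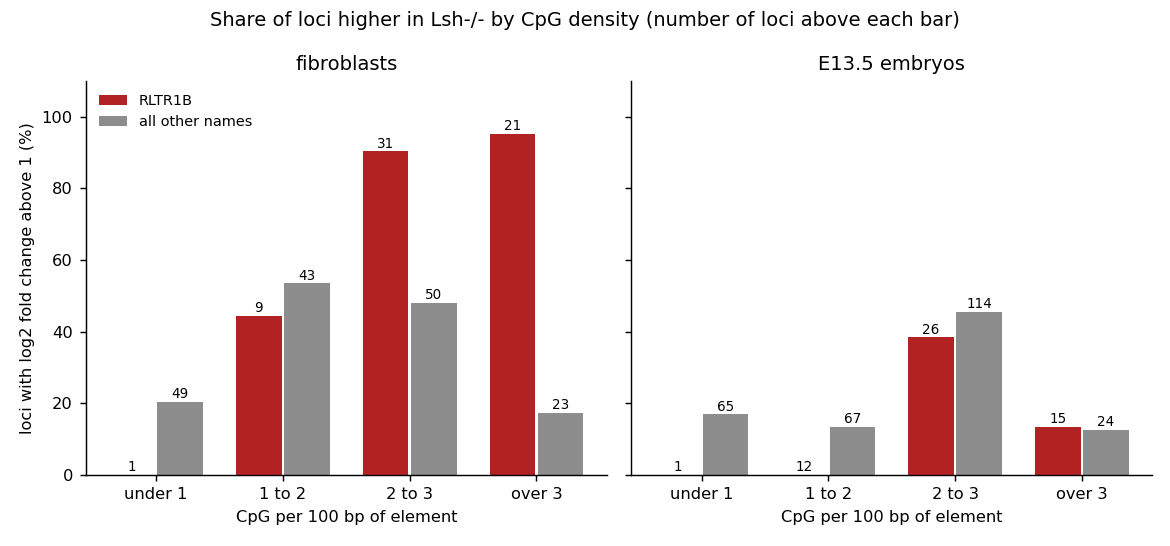
Share of compared loci with a log2 fold change above 1 by CpG density of the element, for RLTR1B (red) and all other names (grey), in fibroblasts (left) and E13.5 embryos (right), with the number of loci above each bar. In fibroblasts 95.2% of the RLTR1B loci with over 3 CpG per 100 bp and 17.4% of the other loci of that density were above 1.

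Shares also varied with place and structure. In fibroblasts 78 of 124 intergenic loci (62.9%), 31 of 77 in introns (40.3%) and 4 of 26 over exons (15.4%) were above 1, and in embryos 65 of 205 (31.7%), 20 of 87 (23.0%) and 2 of 32 (6.25%). With RLTR1B left out the order was the same, with 33 of 75 (44%), 24 of 65 (36.9%) and 4 of 25 (16%) in fibroblasts. Paired LTRs were found in 438 of the 998 loci. In fibroblasts 79 of 130 loci with paired LTRs (60.8%) and 35 of 98 without (35.7%) were above 1, but with RLTR1B left out the shares were 29 of 76 (38.2%) and 33 of 90 (36.7%). With RLTR1B left out the shares by LTR pairing were thus nearly equal. Without chromosomes X and Y 101 loci were above 1 in fibroblasts and 82 in embryos.

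The letters TATAAA, which resemble the TATA box of many promoters, were searched on both strands of the 5' LTRs. They were found in 70 of 76 RLTR1B LTRs (92.1%), 43 of 43 of RLTR4_Mm (100%) and 5 of 144 of RLTR6_Mm (3.47%), and in 231 of all 438 paired-LTR loci (52.7%). Windows of 300 bases around the starts of genes, from RefSeq on GRCm38.p6, held them in 4473 of 32851 (13.6%). The median LTR was 430 bases long in RLTR1B and 463 in RLTR6_Mm, longer than those windows. RLTR1B, high in Lsh-/- fibroblasts, and RLTR4_Mm, lower there, shared these letters, and a match is a description and not a site. Only these exact letters were sought, and near forms such as tatataag, which the printed RLTR6_Mm stretch holds, were not. A low share therefore does not show that LTRs lack a TATA box.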

How the data were processed

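Libraries were paired-end and kept strand information (dUTP). The authors mapped reads to mm9 with TopHat 1.4.0 without mismatches, kept unique reads and joined them to repeatmasker. The deposited values are raw counts on each LTR or LINE locus and on its flanks, not normalized, with 6 tables for a library. Whether read pairs were counted once is not given in the sources used here. Unlisted loci were set to 0. Unique mapping leaves few reads on near-identical copies, and reads that differ from the reference are lost.

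Totals of the 6 tables ran from 19216257 to 33904311 counts. Libraries were scaled by TMM (edgeR 4.0.16, R 4.3.3) over intervals flanking LINE-1 loci, with effective sizes of 19481559 and 20118423 in fibroblasts and 27051956 and 26054891 in embryos. Log2 fold changes used the default prior count of edgeR and a minimum of 10 counts over both libraries (Python 3.11.15, pandas 2.3.3, SciPy 1.17.1, pysam 0.24.0, matplotlib 3.10.9). No test was made, since a group is 1 library. Intervals are exact binomial 95% intervals of the ratio of 2 counts. Genes came from GENCODE vM1. Paired LTRs were searched in the outer 1000 bases. Scaling and calls were also run on simulated counts with a uniform depth difference and few lowered intervals. The fibroblast pair, with TMM factors of 0.754 and 1.33, is less even, so that run does not vouch for its scaling. The tables hold starts counted from 0, and positions are given from 1.

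Loci, lists and repeat names were chosen with earlier results of these data known. Named loci, on placed chromosomes, are for each tissue the 8 with the most counts above 5 away from an IAP locus, the 3 near one, the 4 below -1, the 4 within 1, and the locus above 1 with the most counts of each name with at least 10 compared loci. Others are said to be picked after their values were seen.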

Additional observations from a re-analysis of the deposited data

Results flagged for a closer look

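Repeat names and loci whose log2 ratios lay on opposite sides of 0 in fibroblasts and embryos, with counting intervals that excluded 0, were listed. With 1 library per group the difference between tissues was not tested. For summed counts the log2 ratio was 0.13 in fibroblasts and -2.78 in embryos for RLTR1B, where the locus on chromosome 8 decides both. It was -0.83 and 0.44 for RLTR6_Mm, where the locus near Dhx40 held most of the WT fibroblast counts and without it the values are 0.62 and 0.66, on the same side of 0. It was 1.4 and -0.30 for LTRIS_Mm, 0.61 and -0.56 for LTRIS2, 0.57 and -0.13 for LTRIS4, 0.63 and -0.56 for RLTR24, and 0.24 and -0.10 for LTR16A. Single loci of this kind were RLTR1D on chromosome 12 with 1.37 and -1.17, the RLTR4_Mm locus on chromosome 18 above 1 with the most counts in embryos, with -0.68 and 1.02, and LTR16A on chromosome 6 with 0.25 and -0.10. The RLTR4_Mm locus held 138 and 89 counts in fibroblasts and 199 and 390 in embryos.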

How the results depend on the processing

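No paired analysis was possible because each group is 1 library, and for the same reason no replicate could be left out. With a prior count of 1, 24 loci were above 5 in fibroblasts and 4 in embryos, in place of 52 and 16. With every listed locus 102, 349 and 184 of 685 fibroblast loci were above 5, above 1 and below -1, and 78, 324 and 262 of 845 embryo loci. With at least 50 counts these were 26, 40 and 10 of 88, and 2, 18 and 6 of 106. The share above 1 was thus 50.9% and 45.5% in fibroblasts, against 37.1% and 32.3% of all LTR and LINE loci, and 38.3% and 17.0% in embryos, against 36.2% and 9.55%. With the total of the LTR table, 94 fibroblast loci were below -1 and the medians turned to -0.33 and -0.10. With the total of all 6 tables, 23 were below -1 and the fibroblast median was 1.66. Chosen after seeing the data, calls whose counting limits also passed gave 11 loci below -1 in fibroblasts, and 35 above 1 and 14 below -1 in embryos. Also chosen then, RLTR1B outside annotated genes had 91.8% above 1 in fibroblasts, and RLTR1B sums without the chromosome 8 locus had log2 ratios of 2.58 and 0.21, those of RLTR6_Mm without the locus near Dhx40 had 0.62 and 0.66, and RLTR1B loci chosen by their embryo counts had 72.2% above 1 in fibroblasts. The other 71 values moved by less than 1.5 times or stayed within their counting or order-statistic limits, among them those without X and Y, without loci near IAP, without overlapping loci and with median-of-ratios size factors. The low counts limit the precision of the loci above 5, most of which had no WT count.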
